A study of Drosophila melanogaster with 20 samples.

Results

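The transcripts of wild-type (WT) wings and WT salivary glands of Drosophila melanogaster were compared at 6 h after puparium formation (+6 h), gene by gene. The comparison rests on 4 of the 20 libraries of the series, 2 of wing and 2 of gland, chosen by their labels. Of the 17602 genes with values, 10171 had enough reads over the 20 libraries to be tested. Both tissues carried the genotype +/+; +/+; +/+, came from animals labelled female and raised at the same temperature, and were staged from the white prepupa. Each library was made from total RNA of at least 60 pooled wings or glands. The remaining libraries hold the same tissues 30 h and 6 h before puparium formation (-30 h and -6 h), from WT animals and from animals with RNAi against the ecdysone receptor gene EcR. All 20 libraries enter the estimate of the spread between libraries, and the earlier WT libraries are also used to follow the tissue difference over time. Whether the pair of libraries in each group represents separate collections of animals is not given in the labels, so p-values measure the spread between libraries, pooled for each gene over the 10 groups.

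The steroid hormone ecdysone starts metamorphosis in both tissues through the same receptor, a pair of the nuclear receptors EcR and Usp, but the tissues have opposite fates. The wing is an epithelium that turns out of its imaginal disc and covers itself with apical matrix and pupal cuticle on the way to the adult blade. The larval salivary gland is a polyploid secretory organ that expels its glue at puparium formation, then makes other secreted products in the prepupa, and is later destroyed by programmed cell death.

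Levels are given in scaled RPM, that is, the reads of a gene relative to the library total (RPM) after scaling by the trimmed mean of M values (TMM), always for replicate 1 and then replicate 2. They are not corrected for gene length and are compared between tissues, not between genes. Differences are wing minus gland in log2(scaled RPM + 1) with the standard error of the limma fit, so a positive value means higher in wing and a negative value higher in gland. To be called, a gene needed a difference of at least 2-fold and a p under 0.05 after Benjamini-Hochberg adjustment. The 4 libraries held 18131382 to 22626725 reads and 10365 to 11251 genes with a read. The 2 libraries of a tissue differed by a median of 0.145 (wing) and 0.275 (gland) on the log2 scale, and the median standard error of a tissue difference was 0.287. In these bulk samples, fewer cells of a type and less RNA per cell cannot be told apart.

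The tissues differed over a large part of the genes tested, and the largest differences lay on the side of the gland. In all, 4817 of 10171 genes were called (47.4%), 3134 higher in wing (30.8%) and 1683 higher in gland (16.5%). The wing and gland libraries did not overlap for 8470 genes (83.3%). A difference of 5 or more was found for 34 genes higher in wing and for 194 genes higher in gland. The 10 most abundant genes, which include both copies of the 7SL RNA, held 51.3% and 48.5% of gland reads against 15% and 14.7% of wing reads. The counts of the 2 copies were nearly equal, so the same reads may be counted at both. The split by direction depended on how the libraries were scaled. The median difference over all genes tested was 0.297 with TMM, 0.045 with median-of-ratios scaling, 1.39 with library size alone and 1.80 in the RPKM values as deposited. Genes higher in wing made up 65.1% of the called genes with TMM, 54.7% with median of ratios (2661 and 2208 genes), 89.5% with library size alone (5803 and 679) and 87.9% in the RPKM values (5944 and 817). Counts for gene groups are therefore given beside those with library size alone wherever the direction turns.

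**Figure D1:**
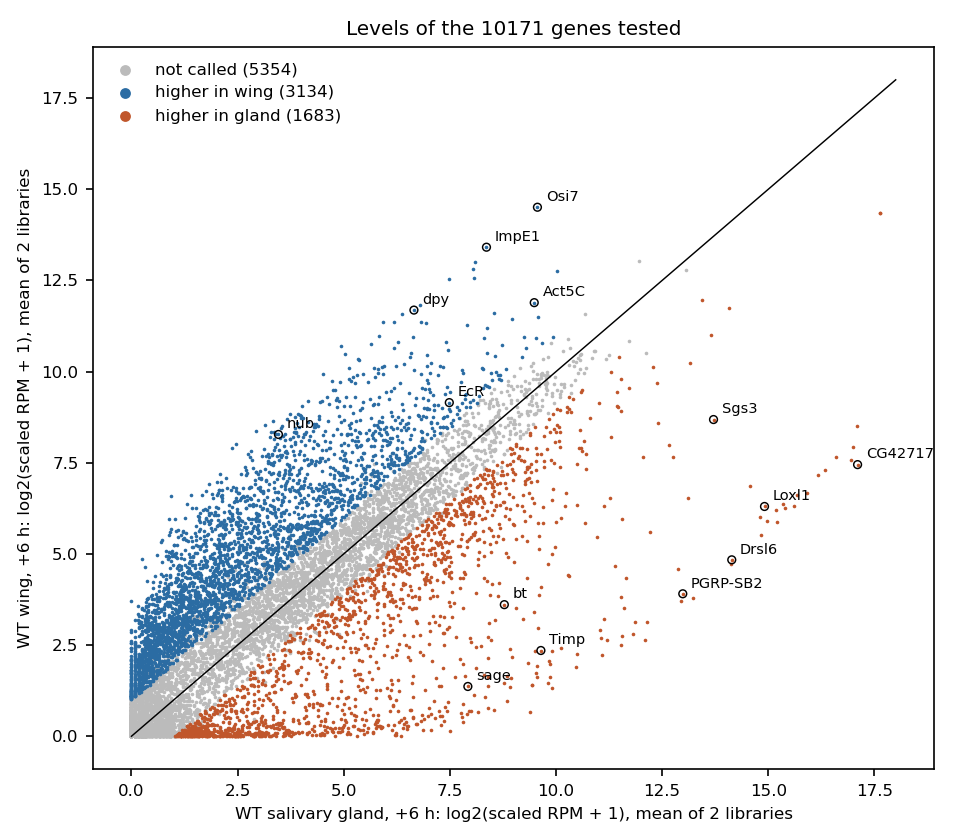
Mean log2(scaled RPM + 1) of the 2 gland libraries (x axis) against that of the 2 wing libraries (y axis) for the 10171 genes tested, with the line of equal level; genes higher in wing are blue, genes higher in gland orange and genes not called grey. The points farthest from the line lie on the gland side and include CG42717, Drsl6 and PGRP-SB2, and those far out on the wing side include Osi7, ImpE1 and dpy.

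The markers of the labelled tissues separated the libraries. All 12 wing markers were higher in wing, and 10 of 12 gland markers were higher in gland. The exceptions were the glycosyltransferase gene Pgant9, which was higher in wing, and PH4alphaSG2, a prolyl hydroxylase gene at 0 in both gland libraries. The wing markers summed to 2510 and 2317 scaled RPM in wing and 216 and 219 in gland. The gland markers summed to 12777 and 21706 in gland and 662 and 1235 in wing.

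The late puff genes at 71E, small genes known for their induction by ecdysone in the prepupal gland, stood among the largest differences of the genome. All 10 of them, side by side on chromosome 3L (15649126 to 15661809 of dm6), were higher in gland, with a median of -9.14 against 0.297 over all genes. All 10 were also called under each other scaling. Eig71Eg stood at 107949 and 146747 in gland and 128 and 255 in wing, a difference of -9.44 ± 1.23 (adjusted p = 1.26e-05). Eig71Ea stood at 80169 and 85367 in gland and 78.2 and 236 in wing (-9.24 ± 1.22). Even Eig71Ek, with the smallest difference of the 10, stood at 972 and 893 in gland and 1.52 and 2.63 in wing (-8.27 ± 0.35). The tissues were far apart in all 3 genes. Together the 10 genes took 17.2% and 21.0% of gland reads and 0.0631% and 0.147% of wing reads. Within the wing, replicate 2 was above replicate 1 for 10 of 10 of these genes, by a median ratio of 2.23, and for 8 of 8 glue genes, by 3.62, while over all genes tested it was above in 4947 of 10171. Among gland-higher genes with 1000 scaled RPM or more in gland it was above in 72 of 108, by a median ratio of 1.11. The part of gland RNA in the wing libraries was not tested.

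The 15 genes ranked highest in gland lay close together, between -9.15 and -9.71. They held 4 genes of 71E (Eig71Ef, Eig71Eg, Eig71Eh and Eig71Ea), the Drosomycin-like gene Drsl6 and 10 genes whose names tell no role. CG42717 led with 142312 and 139083 in gland and 124 and 223 in wing (-9.71 ± 1.18, adjusted p = 6.72e-06). CG34280 stood at 55233 and 67265 in gland and 55.1 and 145 in wing (-9.40 ± 1.05), CG43229 differed by -9.39 ± 0.84, CG42798 by -9.19 ± 0.74, CG42713 by -9.17 ± 1.26 and CG4151 by -9.15 ± 1.07. The spans of CG43679 (-9.53 ± 0.61), CG42537 (-9.41 ± 0.97), CG45081 (-9.36 ± 0.56) and CG33998 (-9.16 ± 1.13) are wholly covered by other annotated genes on either strand, whose reads may be counted with theirs. What the top of the gland list shares is small size. The median span of the 15 genes was 536 bases and 14 of them spanned under 1000 bases, against 16% of all genes tested and 0 of the 15 genes ranked highest in wing, whose median span was 12070 bases. Outside that ranking, and named after their values were seen, CG32762 stood at 140879 and 137704 in gland and 208 and 515 in wing (-8.73 ± 1.22) and the thioester protein gene Tep2 at 26338 and 22485 in gland and 99.2 and 132 in wing (-7.72 ± 0.49).

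The glue genes, whose products fix the puparium to its substrate, were still higher in gland after the stage at which glue is expelled. Of 13 genes tested, 12 were higher in gland and 0 in wing (median -4.28), against 6 and 0 with library size alone. Sgs3 stood at 9328 and 17458 in gland and 149 and 672 in wing (-5.33 ± 1.32, adjusted p = 0.00307). Sgs1 stood at 765 and 1033 in gland and 8.73 and 42 in wing (-5.44 ± 1.05), and Sgs8 at 211 and 286 in gland and 2.75 and 8.09 in wing (-5.40 ± 1.21). In all 3 the lower gland library lay above the higher wing library, and the wing libraries differed from each other by a larger factor than the gland libraries did. Eig71Ee, a glue gene that lies at 71E, differed by -6.36 ± 1.43. The genes Pig1 (-4.01 ± 0.40) and ng2 (-1.74 ± 0.43), which like Sgs4 (-5.74 ± 0.64) lie wholly within other spans, were also higher in gland, and ng4 had 1 read in the 4 libraries together.

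Defence genes were on the gland side nearly without exception. Of 18 antimicrobial peptide genes tested, 15 were higher in gland and 0 in wing (median -3.02), against 10 and 0 with library size alone. The family held 0.789% and 0.904% of gland reads and 0.0035% and 0.00642% of wing reads. The Drosomycin-like genes, which lie with Drosomycin on chromosome 3L between 3314996 and 3369942, gave the largest differences. Drsl6 stood at 16281 and 19799.8 in gland and 19.9 and 35.3 in wing (-9.35 ± 0.73, adjusted p = 8.78e-08), and Drsl1 at 3904 and 2086 in gland and 4.16 and 7.3 in wing (-8.77 ± 0.63). Drsl5 stood at 49.6 and 41.3 in gland and 3.29 and 7.89 in wing (-2.91 ± 0.36), and Drosomycin itself (Drs) did not pass the test (-1.80 ± 0.86, adjusted p = 0.0888). The peptide genes best known from the systemic response to bacteria also separated the tissues. Drosocin (Dro) stood at 49.8 and 37.4 in gland and 0.254 and 0.235 in wing (-5.15 ± 0.99), and Cecropin A1 (CecA1) at 48 and 19 in gland and 0.145 and 0.0393 in wing (-4.84 ± 0.45). Attacin A (AttA) stood at 21.4 and 22.6 in gland with 0 and 1 reads in the wing libraries. The Defensin gene Def (-5.28 ± 0.43) lies wholly within another span, and its 2 gland libraries lay far apart, at 81.4 and 20.2, as did those of AttD, at 16.2 and 2.29.

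Genes of the recognition of bacteria and of the signalling around such peptides, whether they raise or limit it, followed the same side. Of 15 recognition and signalling genes tested, 14 were higher in gland and 0 in wing, against 6 and 1 with library size alone. PGRP-SB2, a peptidoglycan recognition protein gene, stood at 10180.3 and 6035 in gland and 13 and 15 in wing (-9.03 ± 0.93). The related genes PGRP-LA and PGRP-LF differed by -3.61 ± 0.40 and -4.89 ± 0.71. Dif, an NF-kappaB factor of the Toll pathway, stood at 56.1 and 57 in gland and 0.941 and 1.92 in wing (-4.59 ± 0.40). Rel, the factor of the Imd pathway, stood at 334 and 365 in gland and 36.4 and 38.8 in wing (-3.18 ± 0.20), with its span inside another gene. The libraries did not overlap for these genes, and PGRP-SA, a receptor upstream of Toll, was not called (1.00 ± 0.37, adjusted p = 0.0327).

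Markers of fat body, the main source of antimicrobial peptides in the fly, were also more often on the gland side at +6 h. Of 12 fat body markers 8 were higher in gland and 3 in wing, and their sum was 2972 and 2708.5 scaled RPM in gland and 365 and 462 in wing, with no marker at 0 in any library. The fat body protein gene Fbp1 stood at 1261 and 1274 in gland and 11.3 and 28.7 in wing (-6.05 ± 0.76), and the lipophorin gene apolpp at 697 and 488 in gland and 5 and 11.6 in wing (-6.07 ± 0.96). The lipid genes FASN1 (1.09 ± 0.34) and Lpin (1.68 ± 0.24) were on the wing side. The call of FASN1 was lost without wing replicate 2 (1.05) or gland replicate 2 (0.77). At -6 h 10 of the 12 markers were higher in gland, with a median of -6.66 against -4.1 at +6 h. Between these times 3 of the 12 markers changed toward wing and 0 toward gland, and 8 of 18 antimicrobial genes toward gland and 0 toward wing. Over all genes tested 16.8% changed toward wing and 10.2% toward gland. The part of fat body RNA in the defence genes was not tested.

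Genes that cross-link, cut or protect extracellular matrix gave some of the sharpest contrasts. Loxl1, whose relatives in vertebrates cross-link collagen and elastin (chromosome 3R, 31458380 to 31459869 of dm6), stood at 24781 and 36794 in gland and 44.2 and 111 in wing (-8.73 ± 0.85, adjusted p = 7.2e-07). Timp, the inhibitor of matrix metalloproteinases, stood at 682 and 915 in gland and 3.22 and 4.99 in wing (-7.30 ± 0.30), with its span inside another gene. Of the metalloproteinases themselves, Mmp2 stood at 1550.2 and 2011 in gland and 436 and 409 in wing (-2.06 ± 0.45) and Mmp1 at 414 and 350.0 in wing and 89 and 68.5 in gland (2.27 ± 0.81), so that they lay on opposite sides. The call of Mmp1 was lost without any 1 of the 4 libraries (2.09 to 2.46, adjusted p from 0.0663 to 0.115 with limma). Most genes for structural proteins of the basement membrane in the list were higher in wing. They were collagen IV (vkg 3.15 ± 0.35, Col4a1 2.03 ± 0.39), the laminin chains (LanA 2.93 ± 0.32, LanB1 3.54 ± 0.24, LanB2 2.31 ± 0.21), perlecan (trol, 1.93 ± 0.15) and papilin (Ppn, 4.08 ± 0.42). The multiplexin collagen gene Mp was higher in gland (-1.63 ± 0.49), a call lost without wing replicate 1 (-1.45) or gland replicate 1 (-1.51), and the nidogen gene Ndg (0.35 ± 0.60), SPARC (1.24 ± 0.71) and the pericardin gene prc (-0.38 ± 0.79) were not called. Of 20 genes of matrix and integrins, 11 were higher in wing and 5 in gland, against 13 and 2 with library size alone. Among integrin subunits, mew was higher in wing (1.93 ± 0.23), inflated (if) was higher in gland (-1.91 ± 0.29), and mys was not called (0.32 ± 0.19).

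Secretory machinery was on the gland side with TMM and with median of ratios only. Of 25 genes of the endoplasmic reticulum, its translocation channel and the traffic to and from the Golgi, 16 were higher in gland and 0 in wing (median -1.27), but 0 and 5 with library size alone and in the RPKM values. The oxidase gene Ero1L, which drives disulphide formation, stood at 493 and 411 in gland and 37.4 and 25.2 in wing (-3.83 ± 1.13). The folding enzyme gene Pdi stood at 16336 and 9470.4 in gland and 2039 and 2025 in wing (-2.61 ± 0.24), and the chaperone gene Hsc70-3 at 19023 and 15410.5 in gland and 3343 and 3576 in wing (-2.31 ± 0.23). Without wing replicate 2 (-3.56) or gland replicate 1 (-3.70) Ero1L was not called, with an adjusted p of 0.0558 and 0.0513 by limma. These 3 had the largest differences of the group, and the channel genes Sec61alpha (0.22 ± 0.17) and Sec61gamma (-0.04 ± 0.25) were not called. The vacuolar proton pump, which acidifies granules and lysosomes, had 9 genes higher in gland and 0 in wing of 22, and 0 and 3 with library size alone. Its largest difference was that of Vha100-1 (273 and 257 in gland and 68.4 and 72.6 in wing, -1.90 ± 0.11). Autophagy genes had 7 higher in gland and 0 in wing of 19, and 0 and 6 with library size alone. Atg8a, which coats the autophagosome, stood at 576 and 739 in gland and 170.5 and 160.1 in wing (-1.98 ± 0.18).

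Enzymes of mucin-type O-glycosylation, which add sugars to secreted proteins, were divided, in a list that also holds the sulphation genes Papss and sll. Of 13 tested, 4 were higher in gland and 4 in wing, 5 and 2 with median of ratios and 2 and 7 with library size alone. Over all genes tested the shares were 16.5% in gland and 30.8% in wing. C1GalTA, which extends the first sugar by a galactose, stood at 326 and 352 in gland and 5.83 and 5.42 in wing (-5.68 ± 0.59). Pgant genes encode the enzymes that attach the first sugar. Pgant8 stood at 71.1 and 134 in gland and 8.84 and 11.8 in wing (-3.13 ± 0.37) and Pgant6 differed by -1.91 ± 0.21, on the gland side. Pgant9, which is known to glycosylate glue proteins, stood at 454 and 409.9 in wing and 124 and 121 in gland (1.81 ± 0.69), and Pgant1 at 301 and 248 in wing and 47.6 and 31.8 in gland (2.78 ± 0.61), on the wing side. Of the Pgant genes named, Pgant8 and Pgant6 were thus higher in gland and Pgant1 in wing. The call of Pgant9 was less stable, and in the authors' deposited table it did not pass the same thresholds (1.22 ± 0.66). Pgant9 was not called without any 1 of the 4 libraries (1.74 to 1.88, adjusted p from 0.0955 to 0.124 with limma).

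Genes tied to the identity of the gland were more often higher in gland, by fewer members than at -6 h. Of 11 tested, 6 were higher in gland and 2 in wing, 7 and 0 with median of ratios and 5 and 3 with library size alone. The bHLH gene sage, whose expression is specific to the gland, stood at 256 and 228 in gland and 1.27 and 1.88 in wing (-6.57 ± 0.36). The forkhead factor gene fkh stood at 49 and 39.2 in gland and 0.398 and 0.785 in wing (-4.83 ± 0.36), and Scr, the Hox gene that specifies the gland, at 14.4 and 8.75 in gland and 0.145 and 0.118 in wing (-3.44 ± 0.34). The libraries did not overlap in any of the 3. The Pax gene eyg was higher in gland (-2.69 ± 0.25), and its neighbour toe was not called (-0.60 ± 0.20). The members on the wing side were Pgant9 and Papss, which makes the sulphate donor (1.09 ± 0.24). Papss fell short of 2-fold without wing replicate 2 (0.99) or gland replicate 1 (0.82).

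Cell death genes were split at this stage, before the gland is destroyed. Of 12 tested, 3 were higher in wing and 3 in gland, against 7 and 1 with library size alone. Over all genes tested the shares were 30.8% and 16.5%, so these counts do not set the group apart. Buffy, a Bcl-2 family gene, stood at 55.7 and 49.8 in gland and 0.398 and 0.235 in wing (-5.35 ± 0.30), and the caspase gene Strica at 60.8 and 72.4 in gland and 10.7 and 13.3 in wing (-2.38 ± 0.23). The death activators hid and rpr were higher in wing, hid at 232 and 198 in wing and 41.3 and 45.8 in gland (2.28 ± 0.25) and rpr at 22 and 22.2 in wing and 4.83 and 7.54 in gland (1.71 ± 0.38). In the table deposited by the authors for this contrast, rpr did not pass the same thresholds (1.22 ± 0.69). The initiator caspase gene Dronc (0.89 ± 0.33) and the inhibitor gene Diap1 (0.75 ± 0.28) were not called.

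**Figure D2:**
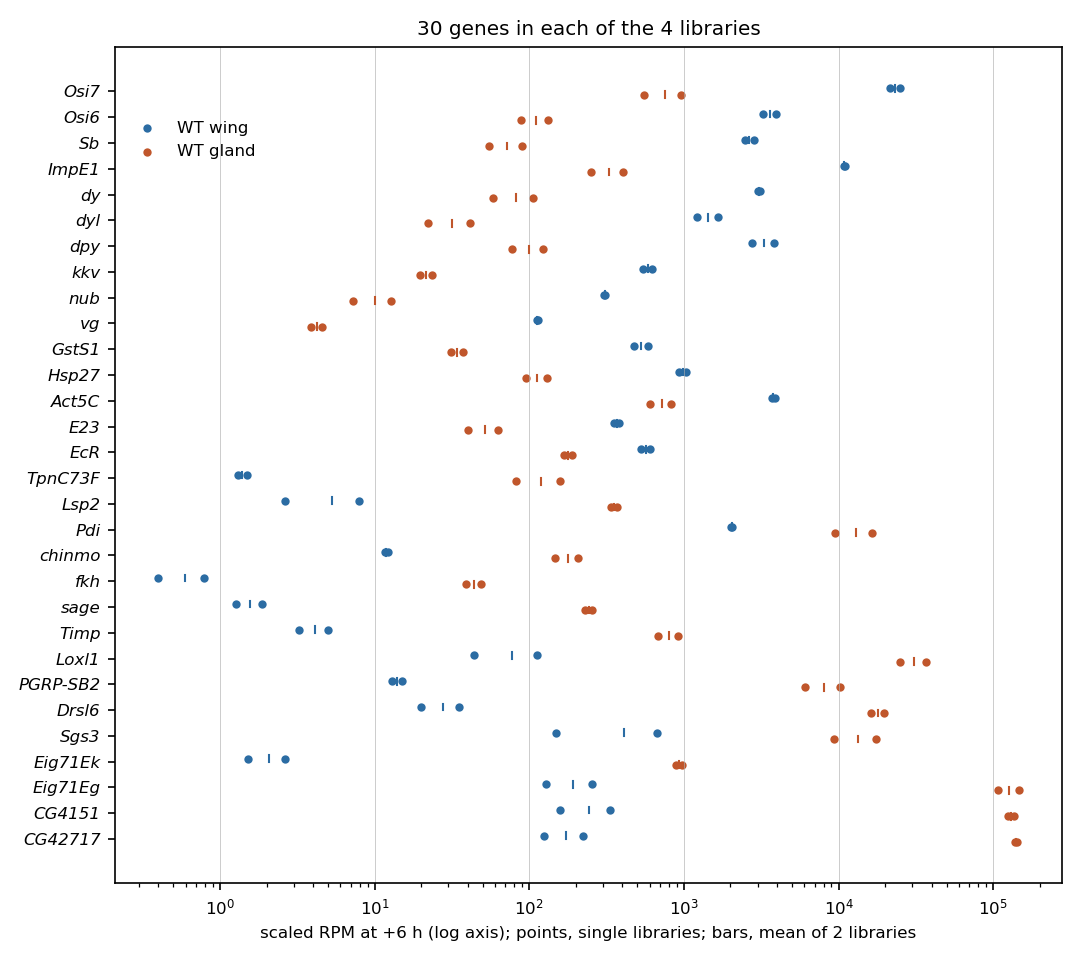
Scaled RPM on a log axis of 30 genes in each of the 2 wing libraries (blue) and 2 gland libraries (orange), with a bar at each mean. In every gene shown the wing and gland points do not overlap, from CG42717, at 142312 and 139083 in gland, to Osi7, at 21504 and 25035 in wing.

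On the wing side, wing identity genes were the clearest patterning group. Of 18 tested, 17 were higher in wing and 0 in gland (median 4.41), with the same counts under each other scaling. The selector gene vg stood at 112 and 114 in wing and 4.6 and 3.9 in gland (4.44 ± 0.51). The pouch genes nub and rn stood at 311 and 307 in wing and 7.24 and 12.8 in gland (4.86 ± 0.56) and at 433 and 389 in wing and 12.9 and 10.4 in gland (5.03 ± 0.61). The dorsal selector ap differed by 3.72 ± 0.63 and the spalt gene salm by 4.41 ± 0.35. The partner of Vg, sd, stood at 392 and 386 in wing and 128 and 138 in gland and so had the smallest called difference of the group (1.54 ± 0.25). Lim1 was not called, at or under 0.673 scaled RPM in each of the 4 libraries. Among genes that set the body axis, hth (4.01 ± 0.19), tsh (4.18 ± 0.31) and Antp (3.49 ± 0.57) were higher in wing, and exd was not called (0.11 ± 0.15).

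Signals that pattern the wing were higher there too. Of 31 genes of the Wnt, Hedgehog, Dpp and Egfr pathways, 24 were higher in wing and 0 in gland (median 2.72). The Wnt ligand gene wg stood at 65.4 and 59.1 in wing and 6.09 and 5.39 in gland (3.23 ± 0.54), the Hedgehog gene hh at 65.2 and 58.3 in wing and 2.18 and 2.56 in gland (4.22 ± 0.35), and the neuregulin-like ligand gene vn at 82.9 and 86.4 in wing and 3.45 and 5.25 in gland (4.02 ± 0.40). The receptor and target of Hedgehog, ptc, differed by 4.02 ± 0.23. The BMP ligand gene dpp differed less (1.58 ± 0.26), and gbb (-0.57 ± 0.37) and the receptor gene Egfr (-0.70 ± 0.33) were not called. Egfr stood at 353 and 277 in wing and 666 and 391 in gland.

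Of 20 Notch and proneural genes, 18 were higher in wing and 0 in gland (median 3.04). The ligand gene Dl stood at 325 and 324 in wing and 14.1 and 12.4 in gland (4.51 ± 0.60), and fng, which modifies the receptor, differed by 4.27 ± 0.55. All 10 tested genes of the E(spl) complex, targets of Notch that lie between 25997621 and 26041008 on chromosome 3R, were higher in wing. E(spl)m2-BFM stood at 168 and 123 in wing and 5.86 and 4.17 in gland (4.60 ± 0.35), and E(spl)m3-HLH at 29 and 30.8 in wing and 1.49 and 0.135 in gland (4.20 ± 0.37). The ligand gene Ser (1.51 ± 0.66, adjusted p = 0.0657) and the proneural gene sens (0.97 ± 0.28) were not called.

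Planar polarity, the system that points wing hairs in one direction, had 12 of 14 genes higher in wing and 0 in gland (median 3.60). The cadherin gene ds stood at 1084 and 1084 in wing and 62.3 and 47.1 in gland (4.30 ± 0.27), and fj, which modifies it, at 271 and 282 in wing and 10.8 and 11.6 in gland (4.51 ± 0.21). The core gene dgo stood at 42.8 and 41.6 in wing and 2.18 and 0.539 in gland (4.29 ± 0.45), and Vang, another core gene, at 124 and 96.7 in wing and 52.6 and 53.7 in gland (1.03 ± 0.18). Without wing replicate 1 Vang differed by 0.85 and was not called. The effectors fy (-0.54 ± 0.33) and frtz (-0.20 ± 0.25) were not called. Genes of the actin hair and bristle had 10 higher in wing and 2 in gland of 17, against 15 and 1 with library size alone. Act5C, a cytoplasmic actin gene, stood at 3865 and 3722 in wing and 602 and 831 in gland (2.42 ± 0.16). The hair regulator mwh differed by 3.58 ± 0.33 and the fascin gene sn by 3.36 ± 0.50. The light chain gene of nonmuscle myosin, sqh, was higher in gland at 1403 and 1628 in gland and 316 and 359.5 in wing (-2.16 ± 0.24), and the heavy chain gene zip was not called (-0.61 ± 0.11).

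Osiris genes encode membrane proteins of epithelia that make cuticle, and as a group they held a large share of the wing. All 13 tested of 23 in the matrix, on chromosome 3R between 6173549 and 6327308, were higher in wing (median 4.17), also under each other scaling. Osi7 stood at 21504 and 25035 in wing and 958 and 552 in gland (4.99 ± 1.12, adjusted p = 0.00144). It took 2.67% and 3.08% of wing reads, the highest share of a protein-coding gene in both wing libraries. Osi6 stood at 3253 and 3952 in wing and 132 and 88.3 in gland (5.04 ± 0.89), and Osi17 at 768 and 908 in wing and 37.5 and 21 in gland (4.85 ± 0.48). The wing libraries lay close together in each of the 3, and the gland libraries differed by a larger factor. Within the gland, replicate 1 was above replicate 2 for 8 of the 13 genes, by a median ratio of 1.72. It was above for 4636 of all 10171 genes tested (median ratio 0.98). Among wing-higher genes with 1000 scaled RPM or more in wing it was above for 45 of 63 (median ratio 1.21). The part of RNA from cuticle-forming tissue in the gland libraries was not tested.

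Zona pellucida (ZP) proteins, which tie an epithelium to the matrix above it, had 10 of 12 genes higher in wing and 0 in gland (median 4.05). The giant protein gene dpy stood at 2765 and 3822 in wing and 122 and 77 in gland (5.05 ± 0.24), dy at 3028 and 3092 in wing and 106 and 58 in gland (5.27 ± 0.73), and dyl at 1222 and 1649.8 in wing and 41.4 and 22.1 in gland (5.51 ± 0.65). No gland library reached the level of a wing library in these genes, and pio (0.90 ± 0.19) and zye (-0.22 ± 0.49) were not called. The transmembrane protease gene Sb, needed for eversion of discs, stood at 2826 and 2470.5 in wing and 89.4 and 54.9 in gland (5.22 ± 0.37).

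Chitin genes were more often higher in wing, though not at every step. Of 26 tested, 12 were higher in wing and 5 in gland, against 16 and 1 with library size alone. The synthase gene kkv stood at 544 and 619.7 in wing and 23.4 and 19.5 in gland (4.70 ± 0.29), and knk, which organises the fibres, differed by 3.54 ± 0.22. The chitinase gene Cht10 stood at 1335 and 1588 in wing and 94.4 and 95.6 in gland (3.92 ± 0.22), the deacetylase gene verm at 288 and 348 in wing and 57.1 and 33.1 in gland (2.83 ± 0.27), and the chitin-binding gene obst-A at 918 and 875 in wing and 42.8 and 24.9 in gland (4.74 ± 0.57). The second synthase gene Chs2 (-0.67 ± 0.12), mmy, which makes the sugar nucleotide for synthesis (-0.62 ± 0.15), Cda5 (-0.77 ± 0.37) and Cht6 (-0.16 ± 0.31) were not called. The 5 on the gland side were Gasp (-1.81 ± 0.25) and 4 of the imaginal disc growth factor genes, relatives of chitinases. Idgf3 stood at 62.2 and 69.7 in gland and 0.652 and 1.69 in wing (-4.99 ± 0.31), and Idgf4 at 29.3 and 28.9 in gland and 7.79 and 8.48 in wing (-1.72 ± 0.20).

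Of 100 cuticle protein genes in the matrix, 49 had enough reads to be tested, and of these 21 were higher in wing and 1 in gland. Cpr78E stood at 39.5 and 50.5 in wing and 1.03 and 0.673 in gland (4.63 ± 0.22), Cpr35B at 49.1 and 51.9 in wing and 2.41 and 1.75 in gland (4.07 ± 0.22), and Cpr49Ac at 209.5 and 173 in wing and 28.3 and 32.9 in gland (2.60 ± 0.55). Of 26 Tweedle genes, another cuticle family, 5 were tested and 3 were higher in wing. They were TwdlC (3.60 ± 0.34) and, with spans wholly or mostly inside other genes, TwdlT (5.47 ± 0.49) and TwdlE (5.19 ± 0.44). Cuticle, Osiris and Tweedle genes together held 3.36% and 3.90% of wing reads and 0.0467% and 0.0312% of gland reads.

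The 15 genes ranked highest in wing lay between 5.18 and 5.74, a narrower departure from zero than on the gland side. CG9411 led at 1354 and 1946 in wing and 29.8 and 28.9 in gland (5.74 ± 0.76). The ranking held dyl, dy and nyo (5.22 ± 0.36) of the ZP genes, TwdlT and TwdlE, and the transmembrane protease genes Sb and flz (5.48 ± 0.57). It also held pwn (5.48 ± 0.26), CG12075 (5.69 ± 0.39), CG6280 (5.64 ± 0.39), CG11409 (5.44 ± 0.37), CG15080 (5.35 ± 0.37), CG10211 (5.33 ± 0.61) and CG6026 (5.18 ± 0.58). Named after their values were seen, the abundant wing transcripts ect at 7784 and 8514 in wing and 325 and 216 in gland (4.94 ± 0.75) and ImpL1 at 5542 and 6551 in wing and 277 and 254 in gland (4.50 ± 0.69) had smaller differences than the ranked genes.

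Junction genes were higher in wing in 6 of 19 cases, a share near the 30.8% of all genes tested, and in gland in 1, against 14 and 0 with library size alone. The E-cadherin gene shg stood at 677 and 698 in wing and 124 and 137 in gland (2.39 ± 0.20). The apical determinant crb stood at 309.8 and 319 in wing and 63.2 and 65.2 in gland (2.27 ± 0.12), and the septate junction gene Gli at 245 and 256 in wing and 33.6 and 26 in gland (3.04 ± 0.19). The catenin genes arm (0.88 ± 0.17) and alpha-Cat (-0.37 ± 0.58) were not called.

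Ecdysone response genes did not fall on one side. Of 17 genes of the cascade, 6 were higher in wing and 3 in gland, shares near those of all genes tested (30.8% and 16.5%), 5 and 4 with median of ratios and 13 and 2 with library size alone. The receptor gene EcR was higher in wing (1.66 ± 0.14, adjusted p = 2.22e-07), and its partner usp, whose span lies inside another gene, was not called (-0.06 ± 0.19). Of the early genes, Eip74EF stood at 97.5 and 115 in wing and 26.8 and 28.1 in gland (1.91 ± 0.39) and Eip75B was not called (-0.38 ± 0.19). The broad gene br, also inside another span, stood at 8861 and 7894 in wing and 3612 and 4376 in gland and was not called (1.07 ± 0.49, adjusted p = 0.0731). The nuclear receptor gene Hr4 stood at 1133 and 1058 in wing and 339 and 267 in gland (1.86 ± 0.35). Hr38, whose product can pair with Usp in place of EcR, stood at 23.4 and 18.3 in gland with 1 and 0 reads in the wing libraries. The prepupal competence factor gene ftz-f1 stood at 239 and 294 in wing and 143 and 268 in gland and was not called (0.44 ± 0.37). Eip93F, which is required for the destruction of the gland, stood at 91.6 and 103 in gland and 10.9 and 9.58 in wing (-3.12 ± 0.46). The coactivator gene tai stood at 692 and 671 in gland and 165 and 183 in wing (-1.96 ± 0.19).

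Other genes tied to the hormone were more often on the wing side, 8 of 13 against 3 in gland. Cyp18a1, the enzyme that clears ecdysone, stood at 125 and 161 in wing and 6.67 and 4.31 in gland (4.48 ± 0.38). The ABC transporter gene E23, of the cascade list, stood at 379.6 and 354 in wing and 62.9 and 40.4 in gland (2.84 ± 0.55). ImpE1 and ImpE2, named for their induction in imaginal discs, stood at 10784 and 10986 in wing and 406 and 250.0 in gland (5.09 ± 0.59) and at 8087 and 6386 in wing and 302 and 223 in gland (4.79 ± 0.31). On the gland side were Eip71CD (-2.16 ± 0.46) and the calcium-binding protein gene Eip63F-1 (-1.97 ± 0.21). The cuticle gene Edg84A stood at 9.78 and 12.2 in wing and 0.115 and 0.404 in gland (3.25 ± 0.13), while Edg91 was at or under 0.0785 in all 4 libraries.

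Of 7 genes of developmental timing, 5 were higher in wing and 2 in gland. The zinc finger gene chinmo, known to keep cells in a larval state, stood at 147 and 208 in gland and 12.1 and 11.6 in wing (-3.77 ± 0.24). The RNA-binding genes Imp and Syp, which oppose each other in neural stem cells, were both higher in wing, Imp at 714 and 694 in wing and 59.2 and 78.1 in gland (3.35 ± 0.25) and Syp at 2933 and 2797 in wing and 748 and 767 in gland (1.92 ± 0.17). The zinc finger genes mamo and ab differed by 2.89 ± 0.16 and 3.78 ± 0.53.

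Cell cycle genes were higher in wing. Of 38 mitosis genes, 31 were higher in wing and 1 in gland (median 2.06), and of 35 DNA replication genes 22 and 0 (median 1.44). CycB stood at 38.6 and 30.1 in wing and 1.84 and 2.29 in gland (3.52 ± 0.27), and Cdk1 at 16.5 and 16.5 in wing and 0.46 and 0.673 in gland (3.48 ± 0.32). PCNA, the replication clamp gene, stood at 11.2 and 12.9 in wing and 1.72 and 2.96 in gland (1.98 ± 0.28). The exception on the gland side was the centrosome gene cnn, at 145 and 178 in gland and 18.9 and 16.2 in wing (-3.13 ± 0.22), and the kinase gene polo was not called (-0.10 ± 0.62).

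Protein synthesis and turnover gave different answers for different machines. Ribosome biogenesis genes were higher in wing in 21 of 24 cases and in gland in 0 (median 2.36), with the nucleolar gene Fib at 20.2 and 14.4 in wing and 0.919 and 0.539 in gland (3.39 ± 0.30). Mitochondrial ribosome genes were higher in wing in 50 of 71 cases and in gland in 1 (median 1.70). Cytosolic ribosomal protein genes had a median of -0.04, with 6 of 86 higher in wing and 2 in gland, 2 and 12 with median of ratios and 73 and 0 with library size alone. Respiratory chain genes had 8 of 65 higher in wing and 2 in gland, and 56 and 0 with library size alone. The proteasome had 20 of 31 genes higher in wing and 0 in gland (median 1.29), 13 and 1 with median of ratios. The core subunit gene Prosbeta7 stood at 48.6 and 66.7 in wing and 7.58 and 9.02 in gland (2.64 ± 0.33), Prosalpha6 at 65 and 62.4 in wing and 9.31 and 9.96 in gland (2.60 ± 0.19), and the lid subunit gene Rpn9 at 47.6 and 57.5 in wing and 12.4 and 11.2 in gland (2.06 ± 0.23). The base subunit gene Rpn1 was not called (-0.75 ± 0.13).

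**Figure D3:**
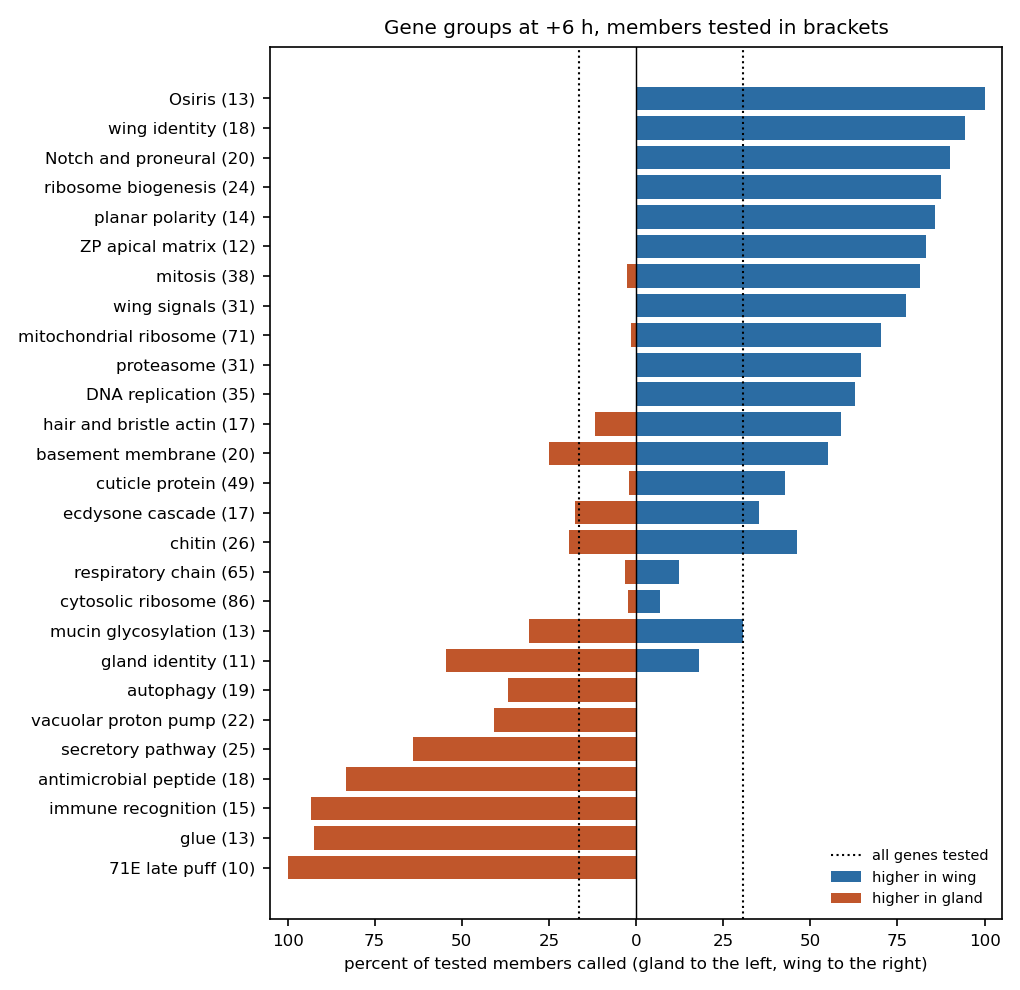
Percent of the tested members of 27 gene groups called higher in gland (orange, to the left) or in wing (blue, to the right) at +6 h; the number tested is in brackets and dotted lines mark the shares over all genes tested, 16.5% in gland and 30.8% in wing. Osiris genes and 71E late puff genes stand at the ends with all tested members called, and cytosolic ribosome and respiratory chain genes lie under both lines; with library size alone the secretory, proton pump and autophagy bars turn to the wing side.

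Markers of other cell types were unevenly spread. Of 16 muscle and myoblast markers, 6 were higher in wing and 6 in gland, with sums of 1861 and 2229 scaled RPM in gland and 588 and 652 in wing. The sarcomere genes bt (369 and 510.0 in gland and 8.47 and 13.9 in wing, -5.19 ± 0.49) and TpnC73F (82 and 157 in gland and 1.3 and 1.49 in wing, -5.58 ± 0.60) were on the gland side. The myoblast gene Him (2.94 ± 0.32) was on the wing side, but stumps, also of this list, was on the gland side (-2.93 ± 0.21). In the table deposited by the authors for this contrast, the actin genes Act87E (1.88 ± 0.64) and Act57B (1.33 ± 0.36) of the list were higher in wing. Among the authors' values, the sarcomere genes Mhc (-3.03 ± 0.77), Mlc1 (-3.77 ± 1.51) and sls (-2.34 ± 0.22) were higher in gland. The myoblast genes twi (3.32 ± 0.67), zfh1 (2.56 ± 0.86) and kirre (2.01 ± 0.94) were higher in wing. Mef2 (-1.68 ± 0.39) was higher in gland, and Mlc2, up and htl did not pass the same thresholds. The list thus sorted only in part by kind of marker. Of 11 tracheal markers, some of them shared with the chitin list, 6 were higher in wing and 1 in gland, with sums of 3036 and 3178 in wing and 864 and 759 in gland. Of 10 blood cell markers tested, 4 were higher in wing and 1 in gland, and the list summed to 54.5 to 72.7 scaled RPM in the 4 libraries with 2 to 5 of 12 genes at 0. Of 11 neural and glial markers tested, 4 were higher in wing and 4 in gland, with sums of 508 and 544 in wing and 161 and 134 in gland. The part of these cells in the differences above was not tested.

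The same contrast was made at the earlier WT times in the same fit. At -6 h 44.5% of genes were called, 25.3% higher in wing and 19.2% higher in gland. At -30 h 30.9% were called, 18.8% in wing and 12.1% in gland. The gland at -30 h had reads in 10995 genes in replicate 1 and in 6351 in replicate 2, so values at -30 h are given as a description. Of the genes higher in wing at +6 h, 1982 were higher in wing at -6 h too, which is 63.2% of those at +6 h and 77.0% of those at -6 h. Of the genes higher in gland, 1010 were so at both times (60.0% and 51.8%). The tissue difference itself changed between -6 h and +6 h for 2749 genes (27.0%), toward wing for 1708 (16.8%) and toward gland for 1041 (10.2%). With library size alone 705 changed toward wing and 2903 toward gland, so the balance of directions depends on the scaling.

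Several groups gained their tissue difference after -6 h. All 13 Osiris genes changed toward wing with TMM, median of ratios and library size alone, and 12 did in the RPKM values. Osi7 stood at 2.12 and 2.8 in wing and 10.7 and 13.3 in gland at -6 h (-1.91 ± 1.12) and changed by 6.91 ± 1.58 (adjusted p = 0.00381). Of the actin and hair genes 13 of 17 changed toward wing and 0 toward gland, and 5 and 2 with library size alone. Act5C changed by 3.03 ± 0.23 and the tropomyosin gene Tm1 by 3.67 ± 0.20. The proteasome had 0 of 31 genes called at -6 h, and 26 changed toward wing by +6 h, among them Rpn9 (2.40 ± 0.32) and Prosbeta7 (2.63 ± 0.46). With median of ratios 20 did, and with library size alone 0 changed toward wing and 1 toward gland.

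On the gland side, late puff and antimicrobial peptide genes moved further apart. In 5 of the 10 late puff genes the difference changed toward gland, from 7 already called in gland at -6 h. Eig71Ej stood at 0.0644 and 0.388 in wing and 0 and 0.23 in gland at -6 h, without a called difference (0.13 ± 0.63), and changed by -9.25 ± 0.90 (adjusted p = 2.81e-06). Eig71Ea was called at -6 h (-6.90 ± 1.22), and its change was not (-2.34 ± 1.72). Of 18 antimicrobial genes 8 changed toward gland and 0 toward wing, Drsl6 by -8.05 ± 1.04 and Drsl1 by -6.86 ± 0.89. Recognition and signalling genes did not share this move, with 11 of 15 higher in gland already at -6 h, 2 changing toward gland and 3 toward wing, and 5 and 2 with library size alone. PGRP-SB2 was on the gland side at -6 h (-8.08 ± 0.93), and its change was not called (-0.96 ± 1.31). Loxl1 stood at 2.22 and 3.07 in wing and 4.17 and 4.14 in gland at -6 h, without a called difference (-0.51 ± 0.85), and changed by -8.22 ± 1.20. Timp changed by -6.14 ± 0.43. The glue genes went the other way, from a median of -8.01 at -6 h to -4.28, with 6 of 13 changing toward wing and 0 toward gland.

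Other groups kept their difference or lost part of it. Of the wing identity genes 17 of 18 were higher in wing at both times, and 0 had a called change, although 3 changed toward gland with median of ratios and 11 with library size alone. Of the ZP genes 9 of 12 were higher in wing at -6 h and 10 at +6 h, and 4 changed toward wing and 2 toward gland, with dyl (6.92 ± 0.91) and dy (3.65 ± 1.04) among those that gained their call in wing. Of the gland identity genes 10 of 11 were higher in gland at -6 h and 6 at +6 h, and 7 changed toward wing and 1 toward gland, against 4 and 2 with library size alone. Of the mitosis genes 34 were higher in wing at -6 h and 31 at +6 h, and the difference of 20 changed toward gland, as for the checkpoint gene BubR1 (-2.34 ± 0.38) and the cytokinesis kinase gene sti (-2.61 ± 0.71). Proton pump genes changed toward wing in 15 of 22 cases, from 16 called in gland at -6 h to 9, but in 1 case with library size alone. Of the secretory genes 1 changed toward wing and 1 toward gland, and 0 and 15 with library size alone.

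**Figure D4:**
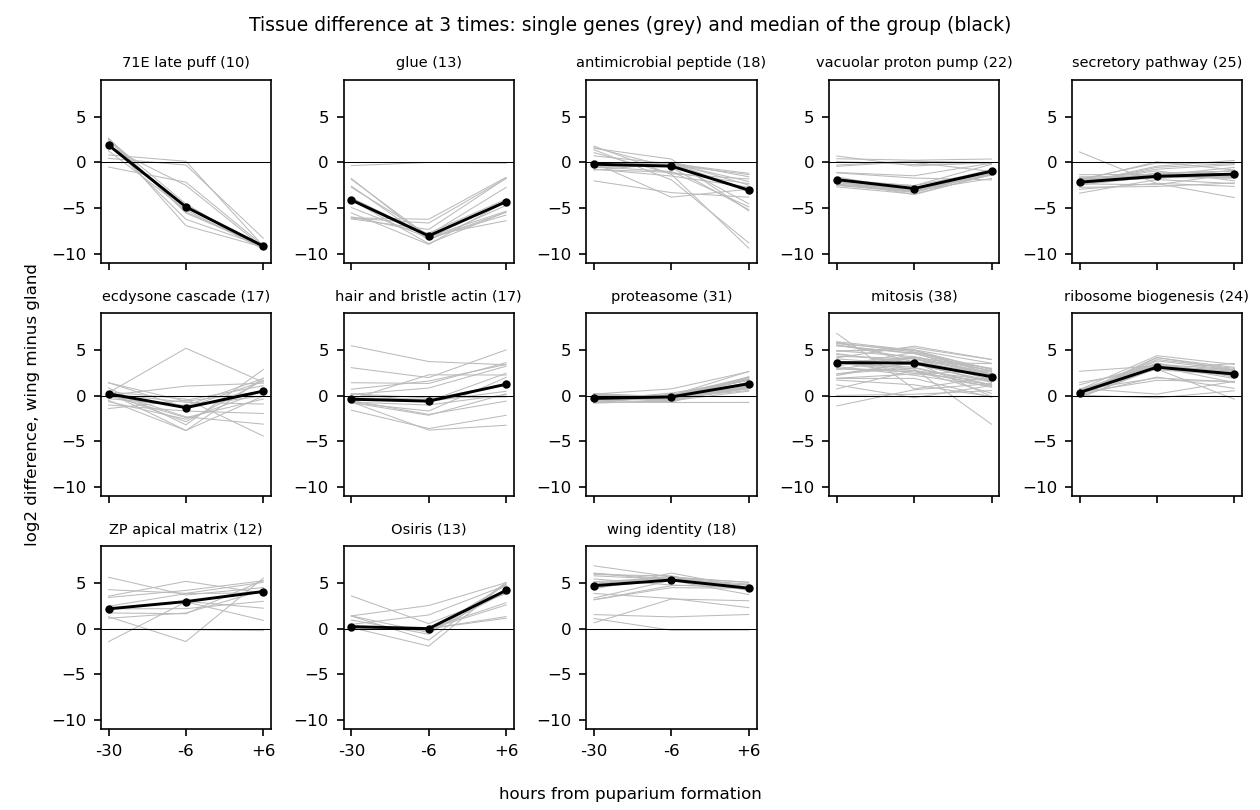
Log2 difference, wing minus gland, in WT tissue at -30, -6 and +6 h from puparium formation for 13 gene groups; grey lines are single genes, black lines the median of the group, and the number of genes is in brackets. The median of the Osiris genes goes from 0.00 at -6 h to 4.17 at +6 h and that of the 71E genes from -4.85 to -9.14, while that of the wing identity genes goes from 5.30 to 4.41.

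For 184 genes the call turned from one tissue to the other between -6 h and +6 h, 131 of them from gland to wing and 53 from wing to gland. Of these, 107 had a called change and reached 20 scaled RPM at both times in whichever tissue was higher, 83 now higher in wing and 24 now higher in gland. Opposite calls at -6 h and +6 h largely settle the test of the change, so its call is no separate support. Among hormone genes, Eip74EF stood at 151 and 129 in wing and 2337 and 1695 in gland at -6 h and changed by 5.74 ± 0.54, and E23 stood at 14.7 and 30.6 in wing and 212 and 195 in gland and changed by 6.03 ± 0.78. Single genes of metabolism and transport were also among the 107. The lactate dehydrogenase gene Ldh stood at 5.66 and 8.23 in wing and 123 and 95.8 in gland at -6 h and at 130.5 and 125 in wing and 12.6 and 10.8 in gland at +6 h, a change of 7.15 ± 0.49. Of the 13 glycolysis genes, to which Ldh was counted, 3 changed toward wing and 1 toward gland, and 1 was higher in each tissue at +6 h. Over all genes tested 16.8% changed toward wing and 10.2% toward gland, so these changes do not set the group apart. The lipase gene bmm changed by 6.15 ± 0.87 and the amino acid transporter gene slif by 7.58 ± 0.67. In the other direction, the copper transporter gene ATP7 stood at 21.7 and 26.8 in wing and 3.73 and 2.76 in gland at -6 h and at 81.4 and 101 in wing and 2305 and 2638 in gland at +6 h, a change of -7.32 ± 0.51. The centrosome gene cnn changed by -6.05 ± 0.31, and stumps, which acts in FGF signalling, by -6.29 ± 0.30.

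**Figure D5:**
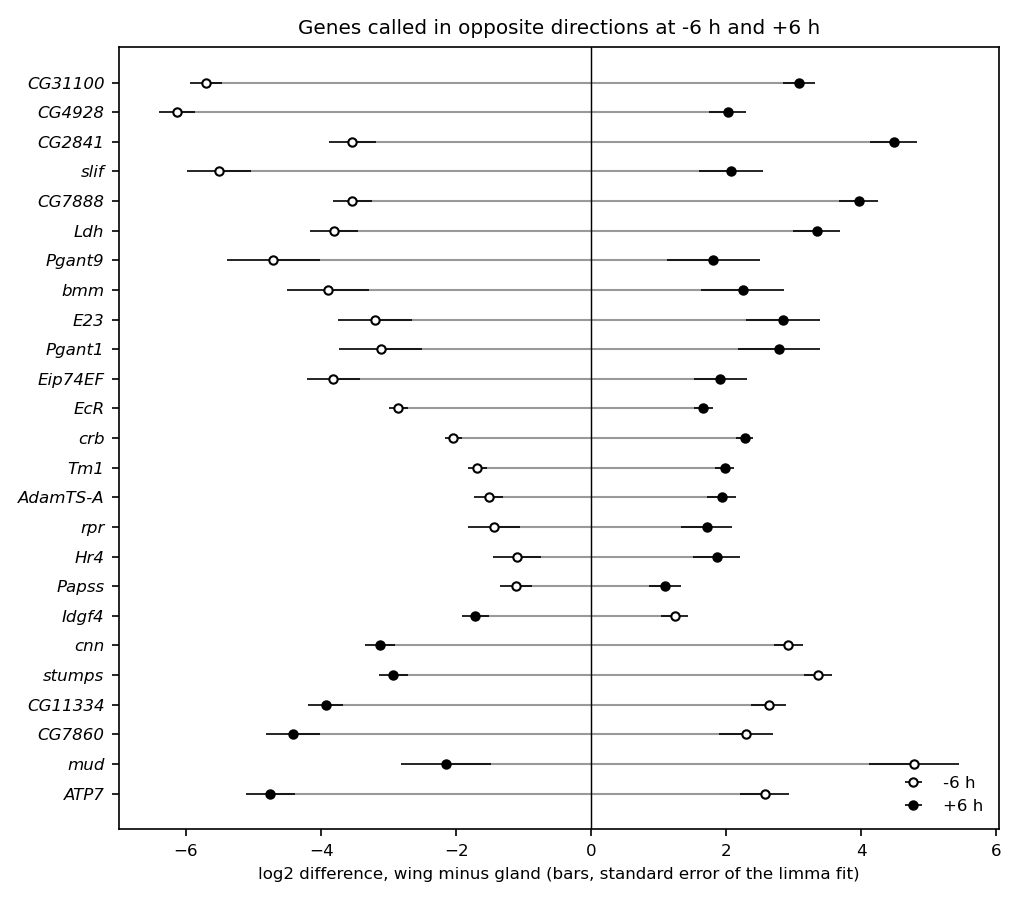
Log2 difference, wing minus gland, of 25 genes called in opposite directions at -6 h (open circles) and +6 h (filled circles); bars are standard errors of the limma fit. The 18 upper genes moved from gland to wing, with CG31100 changing by 8.78, and the 7 lower genes from wing to gland, with ATP7 changing by -7.32.

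In the authors' deposited table for this contrast, 2639 genes were higher in wing and 2170 higher in gland at the same thresholds, and the median log2 over the genes tested here was 0.04. Both called 2553 genes higher in wing, which is 81.5% of those called here and 96.7% of those in the authors' deposited table. Both called 1555 genes higher in gland (92.4% and 71.7%), and 0 genes were called in opposite directions.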

How the data were processed

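RNA sequencing libraries of total RNA were made with a Tecan Universal RNA-Seq kit for Drosophila, per the labels' protocols. STAR 2.7.3a, SAMtools 1.9, DESeq2 and the build dm6 are named in the submitters' processing notes, and the counting tool and its strand setting are not given in the sources used here. The deposited matrix holds RPKM per gene, computed by the authors over the whole span of a gene with introns, as shown by its steps: 63953 of 63971 values worth at most 20 reads came within 0.1 of a whole number of reads (99.97%). Reads were recovered for 17552 of 17606 genes from these steps, 4 genes have no values and 50 were not recovered, of which 5 have reads. The authors' deposited table of log2 fold changes and adjusted p-values for the same contrast was set beside the calls.

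RPM values were scaled by TMM with factors of 1.24 and 1.23 in the wing and 0.385 and 0.41 in the gland libraries. Genes were tested if at least 0.558 scaled RPM was reached in any 2 of the 20 libraries and 15 reads in all. limma 3.58.1 in R 4.3.3 was fitted to log2(scaled RPM + 1) with 1 mean per group over all 20 libraries (10 residual degrees of freedom), with a trended and robust variance prior and Benjamini-Hochberg adjustment over all genes tested. Fold changes on that scale understate the change of low genes. The change of the tissue difference was tested as an interaction in the same fit. Other scalings, filters, pseudocounts, library sets and leaving out each library were tried, and the procedure was tested on simulated data.

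Gene names and positions come from the dm6 annotation, with 16618 genes matched by symbol and 770 by an older one. A gene is described as inside another gene or span where other annotated genes, alone or together and on either strand, cover its span. As the strand setting is not given, reads there may or may not be shared. The gene lists were chosen with earlier results of these data known. Named genes are members of those lists, the 15 ranked highest in each tissue (called, at least 20 scaled RPM in the higher tissue, no overlap) and genes called in opposite directions at -6 h and +6 h. No sequence is shown, since the genome was not used here.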

Additional observations from a re-analysis of the deposited data

Results flagged for a closer look

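The results given here are genes whose tissue difference was called in opposite directions at -6 h and +6 h. Their change between these times was also called, but this adds no separate support. In the fit the standard error of a gene was the same at -6 h and +6 h. Calls of opposite sign at these times therefore largely settle the test of the change. From the 107 such genes, the 5 with the largest change in each direction and all that belong to one of the gene lists were taken, 25 in all, 16 of them from a list. Values are changes in log2(scaled RPM + 1), wing minus gland, from -6 h to +6 h.

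Toward wing went the genes CG31100 (8.78), CG4928 (8.15), CG2841 (8.02) and CG7888 (7.50) and the amino acid transporter gene slif (7.58). The lactate dehydrogenase gene Ldh and the lipase gene bmm changed by 7.15 and 6.15. The O-glycosylation genes Pgant9 and Pgant1 changed by 6.52 and 5.90, and Papss, which makes the sulphate donor, by 2.20. The hormone genes E23, Eip74EF, EcR and Hr4 changed by 6.03, 5.74, 4.52 and 2.96. The polarity gene crb changed by 4.32, the tropomyosin gene Tm1 by 3.67, the matrix protease gene AdamTS-A by 3.45 and the death activator gene rpr by 3.15.

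Toward gland went ATP7 (-7.32), mud (-6.93), CG7860 (-6.72), CG11334 (-6.57), stumps (-6.29), cnn (-6.05) and Idgf4 (-2.97). The span of the spindle gene mud is wholly covered by other annotated genes on either strand, and CG11334 begins inside the end of Loxl1. Reads there may belong to the other genes. The difference at +6 h was not called without wing replicate 2 (1.93) or gland replicate 1 (1.77) for bmm and without wing replicate 1 (-2.06) or gland replicate 2 (-1.90) for mud. For Pgant9 it was not called without any 1 of the 4 libraries (1.74 to 1.88). In the authors' deposited table for +6 h, rpr (1.22), Pgant9 (1.22) and Papss (0.63) did not pass the same thresholds. The cause of these turns was not tested.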

How the results depend on the processing

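The balance of directions depended on the scaling. With library size alone and in the RPKM values as deposited, log2(RPKM + 0.1), respectively 5803 and 5944 genes were higher in wing at +6 h and 679 and 817 in gland, against 3134 and 1683 with TMM. At -6 h 6831 and 7005 were higher in wing and 426 and 503 in gland, and at -30 h 3877 and 4097 in wing and 672 and 664 in gland. The tissue difference changed toward wing for 705 and 660 genes and toward gland for 2903 and 2746. Genes without a call under TMM turned to called higher in wing with these 2 scalings: Eip75B (1.25 and 1.22), Sec61gamma (1.58 and 1.59), frtz (1.39 and 1.41), gbb (1.04 and 1.06), usp (1.55 and 1.57), zip (1.02 and 1.02), Cht6 (1.48 and 1.46) and mmy (1.00 and 1.01), polo (1.49) with library size alone and fy (1.05) and sll (1.06) in the RPKM values. Of 262 values of named genes, 24 and 25 lost their call with these scalings, nearly all on the gland side, among them Atg8a, Eip71CD, Ero1L, Gasp, Hsc70-3, Idgf4, Mmp2, Pdi, Strica, Sxl and tai. FASN1, Mmp1, Papss, Pgant9 and Vang lost it with median of ratios. The cause was not tested.

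Under the other filters, pseudocounts and library sets, counts at +6 h ranged from 2394 (pseudocount 4) to 3337 in wing and from 1274 to 1838 in gland. Without the fold minimum 3818 and 2213 were called. Leaving out each of the 4 libraries gave 2906 to 2938 and 1555 to 1623, with the lone library of a tissue assumed to vary like the other groups. Wing and gland libraries share replicate numbers, and deviations of same-numbered libraries correlated at 0.256 over 2 pairs, too few to take the numbers as a pairing. Fitted to the 4 libraries alone, 3325 and 1750 genes were called without a replicate block and 3333 and 1766 with one. In either fit 4 named genes gained a call. With the block they were Drs, Ser, SPARC and br. Genes that did not reach 0.558 scaled RPM in at least 2 of the 20 libraries were not tested, so their differences were not detectable. The filter did not ask for reads in the 4 libraries compared. Genes nearly absent from them, such as Edg91 and ng4, were therefore among the genes tested.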

Other observations

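Of 30 glutathione S-transferase genes tested, which act in detoxification, 9 were higher in wing and 4 in gland, near the shares of all genes tested (30.8% and 16.5%), against 15 and 0 with library size alone. GstE11 stood at 33.9 and 40.4 in wing and 1.15 and 1.08 in gland (4.17 ± 0.55), GstS1 at 476 and 586 in wing and 31.4 and 37.3 in gland (3.91 ± 0.35), and GstD1, which acts on many toxins, at 240.4 and 263 in wing and 17.6 and 22.5 in gland (3.60 ± 0.33). GstE1 stood at 102 and 179 in gland and 19.1 and 30.9 in wing (-2.42 ± 0.40). Of 5 small heat shock protein genes tested, 3 were higher in wing and 1 in gland. Hsp27, one of the chaperone genes that ecdysone is known to induce, stood at 1034 and 930.1 in wing and 94.8 and 131 in gland (3.13 ± 0.42), and Hsp26 at 110.1 and 99.2 in wing and 9.08 and 5.52 in gland (3.70 ± 0.60).

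Among growth genes, the translation inhibitor gene Thor stood at 56.7 and 51 in gland and 7.71 and 9.46 in wing (-2.52 ± 0.25) and the Hippo pathway scaffold gene sav at 188 and 122 in gland and 26.7 and 28.1 in wing (-2.42 ± 0.23). The kinase gene Tor stood at 78.8 and 77.2 in wing and 21.6 and 26.2 in gland (1.67 ± 0.22), and Myc, whose span lies inside another gene, at 85.7 and 69.9 in wing and 6.55 and 11.2 in gland (3.03 ± 0.24). Of 17 growth genes 3 were higher in wing and 4 in gland, against 12 and 0 with library size alone. Over all genes tested the shares were 30.8% and 16.5%. The relaxin-like hormone gene Ilp8, known from damaged or overgrown discs, stood at 16.4 and 17.4 in gland and 0.181 and 0.393 in wing (-3.80 ± 0.34). Of 17 aminoacyl-tRNA synthetase genes 5 were higher in wing and 2 in gland, near the shares of all genes tested, against 15 and 0 with library size alone. TrpRS was on the gland side at 87.1 and 95.9 in gland and 23 and 19.1 in wing (-2.07 ± 0.19), while LysRS stood at 63.6 and 85.8 in wing and 6.44 and 13.5 in gland (2.85 ± 0.26).

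Of 10 genes of sex and dosage compensation, 2 were higher in wing and 2 in gland, near the shares of all genes tested (30.8% and 16.5%). The sex switch gene Sxl stood at 2554 and 2957 in gland and 523 and 529.6 in wing (-2.38 ± 0.13), and dsx, which directs sexual differentiation, at 121 and 104 in wing and 8.51 and 3.5 in gland (4.11 ± 0.47). The labels give female animals, and the RNAs roX1 and roX2 are known from the dosage compensation complex of males. lncRNA:roX1 stood at 38.7 and 1.81 in wing and 3.22 and 0.808 in gland and was not called (1.93 ± 1.29, adjusted p = 0.218). lncRNA:roX2 stood at 6.08 and 0.157 in wing and 25.4 and 25.7 in gland (-3.21 ± 0.74). In these 2 RNAs, replicate 1 of the wing was well above replicate 2.

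The 2 copies of the 7SL RNA, the RNA of the signal recognition particle, are nearly identical. Their counts were nearly equal in each library (2228348 and 2227999 reads in gland replicate 1), so the same reads may be counted at both. A single copy took 9.85% and 6.05% of gland reads and 2.71% and 2.47% of wing reads. The sum of both, 19.7% and 12.1% in gland and 5.42% and 4.95% in wing, may therefore be too high. The gland libraries differed from each other in this share by a larger factor than in that of the late puff genes.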
